A study of Mus musculus with 22 samples.

Results

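The ribosomes that translate messenger RNA in the cytosol are built on a large and a small subunit, and their protein parts are each encoded, with few exceptions, by a single working gene. These genes are among the most strongly transcribed of any cell, and most of their products are needed in equal numbers. Their messages share a start-site sequence that places their translation under the control of the mTOR kinase. In neurons, ribosomal protein messages are also carried into axons and dendrites. Here 76 such genes were followed, chosen by symbol alone: every protein-coding gene named Rpl or Rps with a number and at most 1 letter a or x, together with Rplp0, Rplp1, Rplp2 and Rpsa. They stand among 23119 genes in the table. Of the 76, 46 encode large subunit proteins and 30 small subunit proteins, and 4 lie on the X chromosome (Rpl10, Rpl36a, Rpl39 and Rps4x).

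The 22 bulk RNA-seq libraries hold striatal total RNA, depleted of ribosomal RNA, of male C57BL/6J mice that were adult. The 5 dorsal oxycodone and 6 ventral oxycodone libraries come from mice that self-administered the opioid oxycodone (0.25 mg/kg per infusion) in sessions of 4 h a day over 14 days. The 5 dorsal saline and 6 ventral saline libraries come from yoked mice, infused with saline in sessions of the same length. No transgene, deletion or other drug is named for any group, and no exact age is given. Of the dorsal libraries, 1 oxycodone pair and 1 saline pair share a title number, with and without a suffix P whose meaning is not given. Nothing states which libraries came from the same animal, so p-values measure the spread between these libraries, which may in part be technical.

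Library totals ran from 11314079 to 21921963 counts in dorsal libraries and from 8408829 to 11000345 in ventral libraries. The dorsal libraries nonetheless held counts for 15622 to 16817 genes, against 16977 to 17365 genes in ventral libraries. Among counts above 20, 51.1% to 54.5% were even numbers in each dorsal library, against 49.2% to 50.5% in each ventral library. Region and way of counting cannot be told apart in any dorsal to ventral difference given here. The marker genes of striatal projection neurons were present in both regions, at 688.5 to 825.3 CPM (counts scaled to a common library size) summed over 5 markers of D1 neurons in dorsal libraries and 381 to 529.8 CPM in the ventral ones other than those numbered 6. Ventral saline library 6 stood apart, with 52.1 CPM of D1 markers and 1365 CPM of glutamatergic neuron markers, where the other 10 ventral libraries held 66.0 to 471.2 CPM of glutamatergic markers. Ventral oxycodone library 6 held 1772 CPM of choroid plexus and ependyma markers, against 18.3 to 53.0 CPM in those 10, and the dorsal libraries held 68.7 to 3566 CPM. The numbers of genes called between regions by the main test are given with and without both ventral libraries numbered 6. So are the ventral mean shares of all counts, the median oxycodone change in ventral striatum and the mean correlations within ventral groups. Most other counts, medians, shares and correlations that include these libraries are given only with them. Bulk RNA does not separate a smaller number of cells of a type from less RNA per cell.

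The sequences around the start sites show what the genes share, and where some of those with large regional differences are alike or not. RefSeq (GRCm38.p6) gave promoters of 300 bases for 56 of the 76 genes, 250 before the start and 50 after it. The motif CCGGAAG, the core bound by ETS family factors such as GABP, was found on either strand in 22 of the 56 (39.3%), against 8.86% of all 32851 promoters in the table. CTTTCC, a pyrimidine run of the kind found at the start sites of these messages, was in 27 (48.2%), against 26.6% of all promoters. CGGAAG, a shorter form of CCGGAAG that every CCGGAAG contains, was in 39 (69.6%), against 16.9%. AAGATGG, the core bound by YY1, was in 8 (14.3%), against 6.34%. TATAAA, the TATA box, was in 5 (8.93%), against 13.6%. Both strands were searched, and CCGGAAG and CTTTCC can overlap by 2 bases. The median GC content was 57.5% in the promoters of the 56 genes and 52.7% in all promoters.

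Below are the 80 bases before and 30 after the RefSeq start of 3 genes that were much higher in dorsal libraries (Rps10, Rpl15 and Rpl41) and 3 that were lower (Rps24, Rps28 and Rps13), read 5′ to 3′ on the gene's strand. Capitals mark CCGGAAG and CTTTCC on either strand. Rpl29 and Rps16, which differed more than Rpl41, and Rps29, which had the lowest difference of all, are not printed.
Rps10 (chr17:27635215-27635324, minus strand): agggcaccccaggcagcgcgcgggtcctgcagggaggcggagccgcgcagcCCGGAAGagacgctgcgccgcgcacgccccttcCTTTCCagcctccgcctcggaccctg
Rpl15 (chr14:18270957-18271066, minus strand): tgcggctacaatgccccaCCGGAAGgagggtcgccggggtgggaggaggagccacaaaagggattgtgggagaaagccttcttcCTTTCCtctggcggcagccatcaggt
Rpl41 (chr10:128549139-128549248, minus strand): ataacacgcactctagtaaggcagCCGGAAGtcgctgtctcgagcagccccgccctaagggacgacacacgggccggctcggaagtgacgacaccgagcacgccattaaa
Rps24 (chr14:24490598-24490707, plus strand): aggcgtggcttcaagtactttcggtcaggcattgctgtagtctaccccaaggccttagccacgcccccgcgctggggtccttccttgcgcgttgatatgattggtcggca
Rps28 (chr17:33824533-33824642, minus strand): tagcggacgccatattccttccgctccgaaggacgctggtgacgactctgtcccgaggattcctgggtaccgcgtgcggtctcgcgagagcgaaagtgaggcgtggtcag
Rps13 (chr7:116334161-116334270, minus strand): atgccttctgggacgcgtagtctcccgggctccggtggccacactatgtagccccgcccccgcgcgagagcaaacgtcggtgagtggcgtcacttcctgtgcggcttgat
The stretches of Rps10 and Rpl15 hold both motifs, that of Rpl41 holds CCGGAAG, and those of Rps24, Rps28 and Rps13 hold neither. Only these exact letters were searched, so other pyrimidine runs, such as the one at the start of Rps24, are not marked. The RefSeq start lay 769 bases from the start of the transcript used for Rps10 and 360 bases for Rpl15. It lay 3 to 86 bases away for the rest. Over the whole promoters the contrast was small for CCGGAAG: it was in 12 of 30 matched genes higher in dorsal libraries in both treatments (40%), 3 of 9 lower in both (33.3%) and 4 of 13 called in neither (30.8%). CTTTCC was in 17 of the 30 (56.7%), 3 of the 9 (33.3%) and 4 of the 13 (30.8%). CGGAAG ran the other way, in 19 of the 30 (63.3%), 8 of the 9 (88.9%) and 9 of the 13 (69.2%). These counts describe letters and were not tested.

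All 76 genes were well covered and passed the filter on low counts in every comparison. The lowest count of any of them in any library was 99, for Rpl39. They held 1.43% to 1.56% of all counts in dorsal oxycodone libraries and 1.27% to 1.54% in dorsal saline libraries. The shares were 1.14% to 1.33% in ventral oxycodone libraries and 0.976% to 1.28% in ventral saline libraries. Group means were 1.51 ± 0.0507% (SD, n = 5) in dorsal oxycodone, 1.41 ± 0.0972% (n = 5) in dorsal saline, 1.22 ± 0.0675% (n = 6) in ventral oxycodone and 1.18 ± 0.111% (n = 6) in ventral saline libraries. The treatment groups overlapped within each region. In dorsal saline libraries the lowest share was that of library 3, and in ventral saline libraries that of library 6. Without both ventral libraries numbered 6, the mean was 1.22% in the oxycodone and 1.22% in the saline group. The share has no test, since it sums over the chosen genes.

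**Figure D1:**
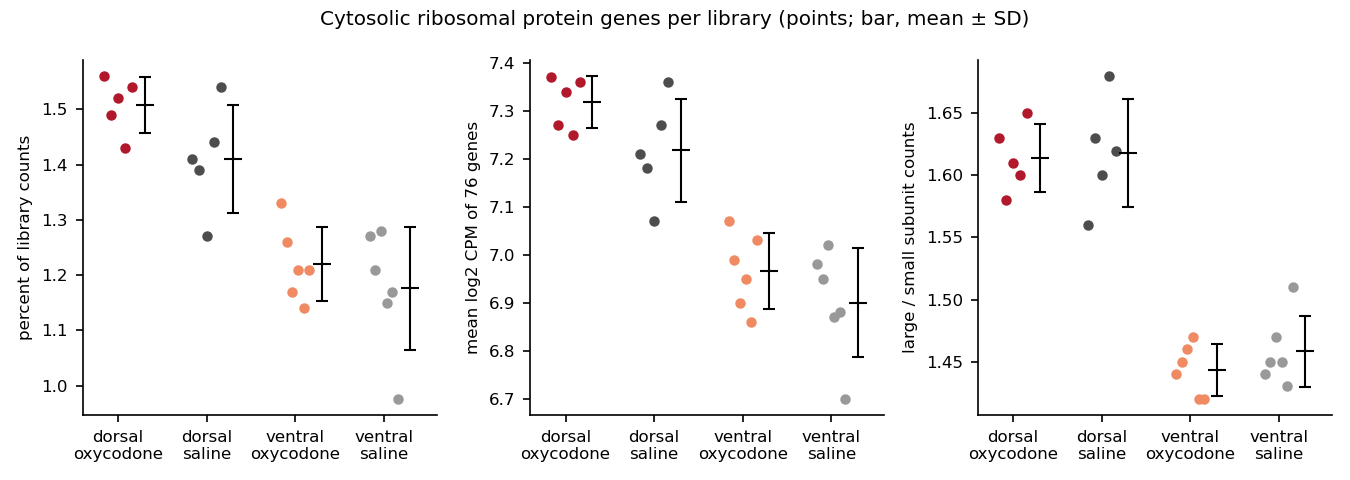
Share of library counts in percent (left), mean log2 CPM (middle) and ratio of large to small subunit counts (right) of the 76 genes, with 1 point per library and the mean ± SD beside each group of 5 or 6. The vertical axes do not start at 0. Dorsal libraries lie at ratios of 1.56 to 1.68 and ventral libraries at 1.42 to 1.51.

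Mitochondrial genes took 2.93% to 4.12% of counts in dorsal and 5.98% to 9.25% in ventral libraries. With these counts left out of the total, the mean share of the 76 genes was 1.56% in dorsal oxycodone, 1.46% in dorsal saline, 1.32% in ventral oxycodone and 1.26% in ventral saline libraries. Large subunit genes gave 1.61 ± 0.027 counts per small subunit count in dorsal oxycodone libraries and 1.62 ± 0.0438 in dorsal saline libraries. The ratio was 1.44 ± 0.0207 in ventral oxycodone and 1.46 ± 0.0286 in ventral saline libraries (SD, n as above). No ventral library reached the lowest dorsal ratio.

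Levels per length spread widely, although most of the proteins are needed in equal numbers. As the mean of the 4 group means, in CPM per kb of the shortest complete coding transcript, Rps24 stood first at 706.8, before Rplp1 at 682.4, Rps15 at 613.3, Rpl17 at 470.2, Rps27 at 444.3 and Rpl26 at 415.6. The first place of Rps24 came from ventral libraries, where it averaged 984.6 CPM per kb with oxycodone and 927.2 with saline. In dorsal libraries it averaged 461.6 and 453.9, below Rplp1 at 651.0 and 621.5 and Rps15 at 612.6 and 574.4. Rplp1 belongs to the acidic stalk that recruits elongation factors. Rps20 stood last at 19.9, after Rpl39 at 25, Rps16 at 40.4, Rpl27 at 51.2, Rpl35 at 77.3 and Rpl27a at 78.5. The low place of Rps20 goes with a single annotated coding transcript of 3706 bases, and per kb of coding sequence it stood at 206.3 CPM. On that scale Rpl27a stood at 204.7, Rpl35 at 198.1 and Rps16 at 102.2, so the order of the lowest genes depends on the length used. Per kb of coding sequence Rpl41, which encodes the smallest of the proteins, was at 1755, while Rpl27 was at 77.1 and Rpl39 at 99.9. Rpl27, Rpl39 and Rps16 were low on either scale. Spread between libraries of a group was largest for Rps16, with an SD of 0.263 on the log2 CPM scale, then Rps28 and Rpl39 with 0.243 and Rplp1 with 0.230. It was smallest for Rpl4 with 0.077, Rps15 with 0.084, Rps2 with 0.088 and Rpl8 with 0.091.

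Within groups the genes rose and fell together to different degrees. The mean correlation over all pairs of the 76 genes, across the libraries of a group, was 0.15 in dorsal oxycodone and 0.28 in dorsal saline libraries. It was 0.46 in ventral oxycodone and 0.62 in ventral saline libraries, and 0.52 and 0.48 without their libraries 6. The 77 genes for mitochondrial ribosomal proteins, a separate machine of bacterial descent, gave 0.01, 0.1, 0.33 and 0.14 in the same order of groups, and 0.38 and 0.13 in the ventral groups without libraries 6. These are descriptions over 5 or 6 libraries.

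Oxycodone against saline in dorsal striatum asked how the genes differ after 14 days of drug taking. None of the 76 passed the threshold (edgeR quasi-likelihood test, Benjamini-Hochberg adjusted p under 0.05 over 14595 genes), and across all genes tested the share called was 0.206%. By an unadjusted p under 0.05, 4 of the 76 stood out (5.26%), against 5.64% of all genes. DESeq2 called 1 of the 76 where it called 0.589% of all genes, and limma-voom with quality weights called none where it called 0.103%. The differences nevertheless leaned one way: 70 of the 76 had a log2 change above 0, against 47.9% of all genes. Their median log2 change was 0.083, with quartiles of 0.046 and 0.13, against -0.008 over all genes. That median is a fold of 1.06, and the median SE of a single gene was 0.09.

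Rps14, a small subunit protein of the platform, had the lowest p. It stood at 346.9, 366.5, 328.3, 332.9 and 309.0 CPM in dorsal oxycodone libraries, against 248.2, 254.7, 294.1, 285.0 and 285.8 CPM in dorsal saline libraries. Each of the 5 oxycodone libraries lay above every saline library, which made Rps14 the only member whose groups did not overlap (1.32% of members, against 1.3% of all genes). Its log2 change was 0.30 (SE 0.07), with an adjusted p of 0.0843 by edgeR and 0.00904 by DESeq2. No fit that left out 1 library brought it under the threshold by edgeR, and its log2 change ran from 0.27 to 0.33 in those 10 fits.

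Rpl31, a large subunit protein near the exit of the peptide tunnel, came next. It had 185.8, 165.6, 184.1, 174.5 and 186.8 CPM in dorsal oxycodone libraries, against 129.8, 142.2, 134.7, 171.9 and 166.3 CPM in dorsal saline libraries. The groups overlapped in 1 oxycodone library, and the log2 change was 0.27 (SE 0.09, edgeR adjusted p = 0.403). Rps21 had a log2 change of 0.25 (SE 0.09, edgeR adjusted p = 0.525) and Rpl18 one of 0.22 (SE 0.09, edgeR adjusted p = 0.712). The largest value, 0.32 for Rpl39, had an SE of 0.23 and rested on libraries at 19.6 and 17.1 CPM beside 3 at 11.0 to 11.5 CPM. The lowest was -0.12 for Rps7 (SE 0.08, edgeR adjusted p = 0.986). Rps6, the substrate of S6 kinase often used to read out neuronal activity, had a log2 change of 0.07 (SE 0.07).

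**Figure D2:**
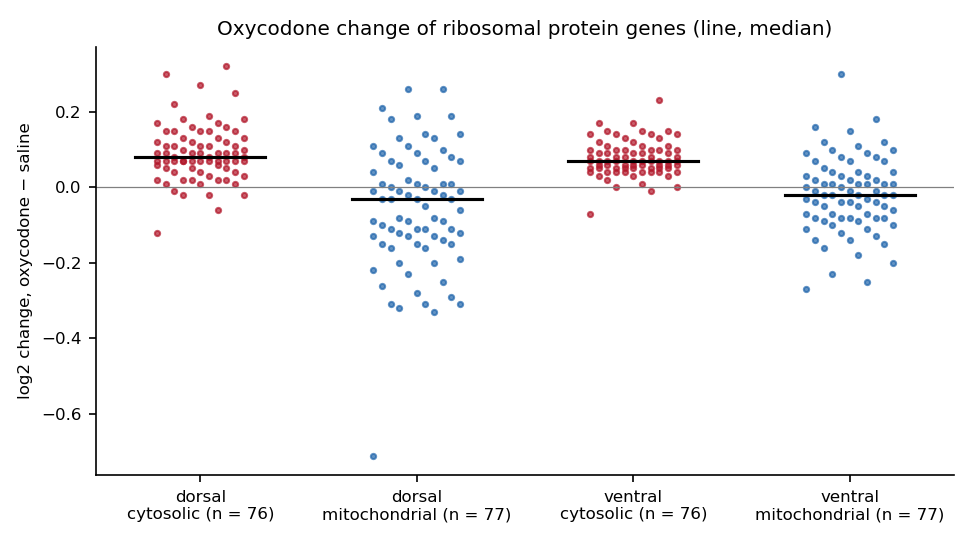
Log2 change, oxycodone minus saline, of 76 cytosolic and 77 mitochondrial ribosomal protein genes in dorsal and ventral striatum; each point is a gene and lines are medians. Most cytosolic points lie just above 0 in both regions, no point passed the threshold, and the low point of the dorsal mitochondrial genes is Mrps28.

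The size of the lean depended on single libraries. Left out in turn, the dorsal libraries gave medians from 0.056 (without saline library 3, when 57 of the 76 genes were above 0) to 0.125 (without saline library 5, when 71 were). Dorsal saline library 3 had the lowest share of the 76 genes and the highest share of mitochondrial counts of its group. In the same comparison the summed levels of some marker lists of other cells ran higher in oxycodone libraries. The summed level of 5 blood genes was 593.2 to 1780 CPM in dorsal oxycodone libraries and 409.7 to 628.8 CPM in dorsal saline libraries, and 1 of 5 was called higher. Microglia markers summed to 373.2 to 511.5 CPM in dorsal oxycodone and 344.1 to 374.2 CPM in dorsal saline libraries, and endothelium markers to 299.5 to 404.8 and 282.2 to 312.3 CPM, with no gene of either list called. The median log2 change of the markers was 0.83 for blood, 0.25 for microglia and 0.01 for endothelium. It was -0.47 for choroid plexus and ependyma, with 0 of 5 above 0. The remaining lists had medians from -0.12 (D1 and D2 neurons) to 0.2 (oligodendrocyte precursors). No gene outside the blood list was called. The part of these cells in the values of the 76 genes was not tested. Mitochondrial ribosomal protein genes had a median of -0.03, with 27 of 77 above 0 and none called.

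In ventral striatum the same question gave a similar lean and no calls. None of the 76 passed the threshold, as none of the 14116 genes tested did by edgeR (0%). By an unadjusted p under 0.05, 2 of the 76 stood out (2.63%), against 9.13% of all genes. Neither DESeq2 nor limma-voom called a member, where they called 0.269% and 0.432% of all genes. No member's groups were apart, against 0.758% of all genes. A log2 change above 0 was seen for 72 of the 76, against 49.1% of all genes, with a median of 0.069 against -0.003.

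Rpl31, next after Rps14 by p in dorsal striatum, had the highest log2 change in ventral striatum. It ranged from 152.3 to 184.3 CPM with a median of 164.5 in ventral oxycodone libraries, against 104.6 to 162.5 CPM with a median of 147.1 in ventral saline libraries. The groups overlapped, since 3 of the 6 oxycodone libraries lay within the saline range, and the log2 change was 0.23 (SE 0.10, edgeR adjusted p = 0.525). The lowest of these saline values was that of library 6, and without both libraries numbered 6 the log2 change of Rpl31 was 0.11 (SE 0.07). Rpl37a and Rpl35a followed with log2 changes of 0.17 each (SE 0.08 each), and Rps9, a small subunit protein, had 0.15 (SE 0.08). Rps27a, made as a fusion with ubiquitin, had 0.14 (SE 0.07). Rps14, the leading gene of dorsal striatum, had 0.04 (SE 0.07) in ventral striatum. The lowest value was -0.07 for Rpl15 (SE 0.09).

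The ventral lean shrank to a median of 0.020, with 52 of 76 genes above 0, when both libraries numbered 6 were left out. Without saline library 6 alone it was 0.035 with 69 above 0, and limma-voom, which weights libraries by quality, gave 0.027 with 52 genes above 0. With lane as a covariate the median was 0.070. Mitochondrial ribosomal protein genes had a median of -0.02 and 33 of 77 above 0, with none called.

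Whether oxycodone acted differently in the regions was tested as the oxycodone change in dorsal minus that in ventral striatum, over all 22 libraries. No member passed by edgeR, DESeq2 or limma-voom, as none of the 14938 genes did with any of these tools (0%). By an unadjusted p under 0.05 there was 1 member, Rps14, against 4.51% of all genes. Its difference of the 2 changes was 0.27 on the log2 scale (SE 0.10, edgeR adjusted p = 0.981). Of the 76, 48 (63.2%) had a difference above 0, against 51.2% of all genes, and the median was 0.023. That median fell below 0 in some fits that left out 1 library.

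Dorsal against ventral striatum gave far larger differences, in both directions, in a background where nearly as many genes differed as did not. In oxycodone libraries 57 of 76 genes passed the threshold (75%, edgeR, adjusted over 14375 genes), against 47.2% of all genes. They split into 39 higher in dorsal libraries (51.3%, against 23.5% of all genes) and 18 lower (23.7%, against 23.7%). In saline libraries 53 passed (69.7%, against 45.8% of 14433 genes), 37 of them higher (48.7%, against 23.6%) and 16 lower (21.1%, against 22.3%). Groups did not overlap for 48 genes in oxycodone libraries (63.2%, against 28.0% of all genes) and for 46 in saline libraries (60.5%, against 30.4%). The share of the 76 called higher was above the background, and the share called lower was near it. Median log2 differences were 0.208 in oxycodone and 0.207 in saline libraries, against -0.007 and -0.010 over all genes.

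**Figure D3:**
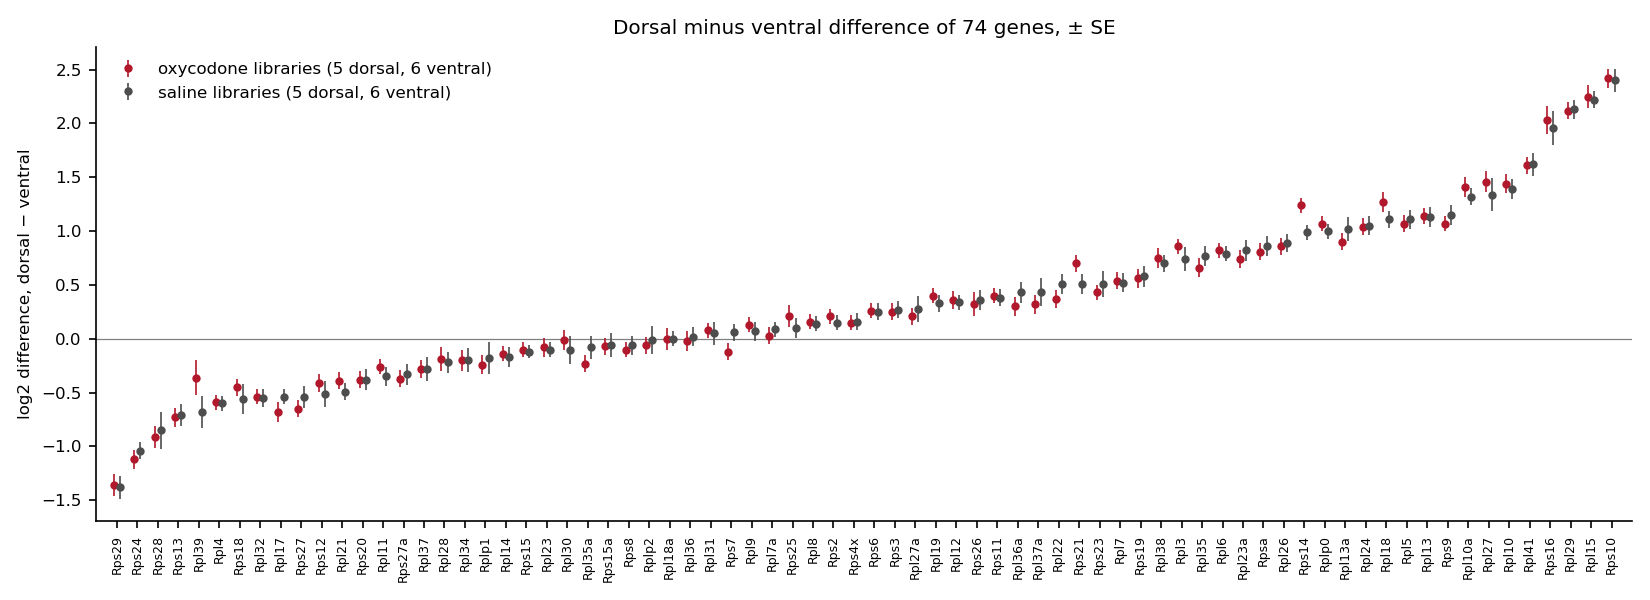
Log2 difference, dorsal minus ventral, of 74 of the 76 genes in oxycodone and in saline libraries, with SE, ordered by the saline value. The values run from -1.38 for Rps29 to 2.40 for Rps10 in saline libraries, and the oxycodone values follow them closely.

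The 2 comparisons use separate libraries and gave nearly the same values. Of the calls, 52 were shared in the same direction, which is 91.2% of the oxycodone calls and 98.1% of the saline calls, and 37 of these were higher and 15 lower. Another 18 genes were called in neither. Pearson's r of the differences was 0.99 over the 76 genes and 0.88 over 14208 genes tested in both, as a description across genes; region and way of counting are common to both comparisons. Genes such as Rpl27a, Rpl35a, Rplp1 and Rps2 passed the threshold in oxycodone libraries and not in saline libraries, Rpl39 in saline libraries and not in oxycodone libraries, and the test of the difference between treatments called none of them. With 1 library left out, the oxycodone call of Rpl27a held in 6 of 11 fits, that of Rplp1 in 4 and that of Rpl35a in 2, while that of Rps2 held in all 11. Limma-voom called Rpl39 in oxycodone libraries too (-0.41, adjusted p = 0.0245).

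The highest differences belonged to small and large subunit genes alike. Rps10, a protein of the head of the small subunit, had 131.7, 120.8, 118.3, 112.1 and 129.1 CPM in dorsal oxycodone libraries, against 20.3 to 26.3 CPM (median 22) in ventral oxycodone libraries. In dorsal saline libraries it had 114.3, 110.9, 103.0, 97.8 and 126.9 CPM, against 17.2 to 23.8 CPM (median 21.2) in ventral saline libraries. No dorsal library came near a ventral one. The log2 difference was 2.42 (SE 0.09, edgeR adjusted p = 1.8e-11) in oxycodone and 2.40 (SE 0.11, edgeR adjusted p = 1.56e-09) in saline libraries, a fold above 5 in each.

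Rpl15, a large subunit protein, had 146.0, 147.6, 133.6, 124.2 and 111.8 CPM in dorsal oxycodone libraries, against 20.4 to 31.1 CPM (median 28.1) in ventral oxycodone libraries. The dorsal saline values were 142.2, 139.8, 137.2, 137.9 and 115.8 CPM, against 25.7 to 31.6 CPM (median 28.6) in ventral saline libraries. The groups lay far apart again, at log2 differences of 2.25 (SE 0.11) and 2.22 (SE 0.08). Rpl29, a heparin-binding protein of the large subunit, averaged 198.2 ± 10.1 CPM in dorsal oxycodone, 192.8 ± 20.6 in dorsal saline, 44.6 ± 4.34 in ventral oxycodone and 43.8 ± 3.34 in ventral saline libraries (SD, n = 5, 5, 6 and 6). Rps16 differed by 2.03 (SE 0.13) in oxycodone and 1.96 (SE 0.16) in saline libraries, and Rpl41 by 1.61 (SE 0.08) and 1.62 (SE 0.11). Rpl10, one of the last proteins to join the large subunit, differed by 1.44 (SE 0.09) and 1.39 (SE 0.09). The calls for all 6 held in each fit that left out 1 library.

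The 4 lowest differences in each treatment were of small subunit genes. Rps29, a zinc-binding protein of the subunit head, had 85.8, 69.2, 79.2, 59.1 and 76.2 CPM in dorsal oxycodone libraries, against 166.1 to 211.7 CPM (median 185.8) in ventral oxycodone libraries. In dorsal saline libraries it had 60.8, 74.9, 51.2, 64.7 and 76.6 CPM, against 133.1 to 184.7 CPM (median 174.4) in ventral saline libraries. All dorsal libraries were below all ventral ones, and the log2 differences were -1.36 (SE 0.10, edgeR adjusted p = 2.13e-08) and -1.38 (SE 0.11, edgeR adjusted p = 3.92e-07).

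Rps24 had 230.7, 175.2, 219.1, 227.6 and 227.6 CPM in dorsal oxycodone libraries, against 412.3 to 510.1 CPM (median 460.5) in ventral oxycodone libraries. Its dorsal saline values were 204.4, 195.1, 196.5, 215.3 and 250.7 CPM, against 372.3 to 481.3 CPM (median 436.2) in ventral saline libraries. The groups were apart in both treatments, with log2 differences of -1.12 (SE 0.09) and -1.04 (SE 0.08). Rps24 is spliced in a tissue-dependent way at its 3′ end. Rps28 differed by -0.91 (SE 0.10) in oxycodone and -0.85 (SE 0.17) in saline libraries, and Rps13 by -0.73 (SE 0.09) and -0.71 (SE 0.10). By subunit, 25 of 46 large subunit genes were higher and 8 lower in oxycodone libraries, and 24 and 7 in saline libraries. Of 30 small subunit genes, 14 were higher and 10 lower in oxycodone libraries, and 13 and 9 in saline libraries. Over all genes, 23.5% were called higher and 23.7% lower in oxycodone libraries, and 23.6% and 22.3% in saline libraries.

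**Figure D4:**
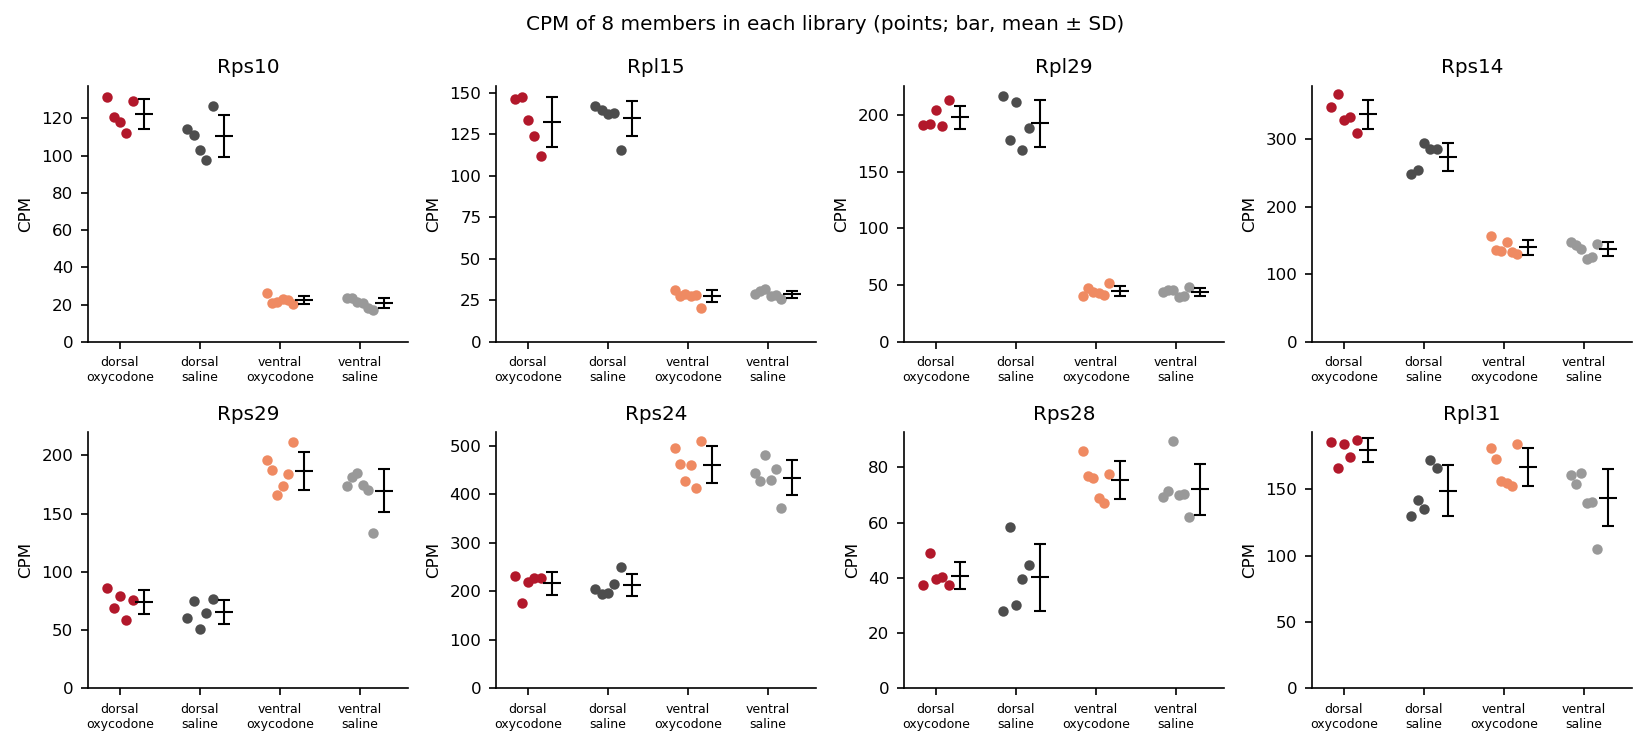
CPM of 8 of the genes in each library, with the mean ± SD of each group of 5 or 6 and all axes from 0. Rps10, Rpl15, Rpl29 and Rps14 are higher in dorsal libraries, Rps29, Rps24 and Rps28 are lower, and the regional groups of Rpl31 overlap.

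Genes that form 1 substructure did not always move together. In the stalk, Rplp0, its base, differed by 1.07 (SE 0.07) in oxycodone and 1.00 (SE 0.07) in saline libraries and was called in both. Its partner Rplp1 differed by -0.24 (SE 0.09, edgeR adjusted p = 0.0294) and -0.18 (SE 0.15, edgeR adjusted p = 0.345), and Rplp2 by -0.06 (SE 0.08) and -0.01 (SE 0.13), which is short of the threshold. Rpl5 and Rpl11 enter the subunit together with 5S RNA and, when free, bind Mdm2 and so raise p53. Rpl5 differed by 1.07 (SE 0.08) in oxycodone and 1.11 (SE 0.09) in saline libraries, and Rpl11 by -0.26 (SE 0.07, edgeR adjusted p = 0.00863) and -0.35 (SE 0.09, edgeR adjusted p = 0.00596), the opposite direction. Rpsa, also known as the laminin receptor, differed by 0.81 (SE 0.08) and 0.86 (SE 0.09). Rpl3, at the peptide-bond centre, differed by 0.86 (SE 0.07) and 0.74 (SE 0.11). Rps6 differed by 0.26 (SE 0.07) and 0.25 (SE 0.08), and the fusion gene Rps27a by -0.37 (SE 0.08) and -0.33 (SE 0.10), all 4 past the threshold. Rps14 differed by 1.24 (SE 0.07) and 0.99 (SE 0.07). Rps4x, on the X chromosome, differed by 0.15 (SE 0.07) and 0.16 (SE 0.08), short of the threshold in both. Rps4x passed it in oxycodone libraries with library totals (edgeR adjusted p = 0.0392), by limma-voom (adjusted p = 0.0441) and without both libraries numbered 6 (0.18, edgeR adjusted p = 0.0489). In saline libraries it passed without dorsal saline library 3 (0.22, edgeR adjusted p = 0.0138).

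A fold of at least 2 was asked as a stricter test (glmTreat). It kept 11 genes in oxycodone libraries (14.5%, against 2.15% of all genes) and 8 in saline libraries (10.5%, against 3.57%). Without both ventral libraries numbered 6, 58 genes were called in oxycodone libraries (76.3%, against 47.5% of all genes) and 56 in saline libraries (73.7%, against 50.7%). Halving the dorsal counts, in case read mates had each been counted, gave 57 calls in oxycodone and 53 in saline libraries. Scaling to library size takes out a halving common to all genes, so this fit cannot show whether mates were counted. Markers of other cells also differed by region: 3 of 5 oligodendrocyte markers were called higher in dorsal oxycodone and 5 of 5 in dorsal saline libraries, with summed levels of 2451 to 3726 CPM in dorsal and 379.8 to 2905 CPM in ventral libraries. Both ends of the ventral range are the libraries numbered 6, and the other 10 lay between 1105 and 2286 CPM. Microglia markers summed to 344.1 to 511.5 CPM in dorsal and 215.1 to 343.7 CPM in ventral libraries, with 4 of 5 higher in each treatment. Choroid plexus and ependyma markers had 0 of 5 called higher in dorsal oxycodone and 5 of 5 in dorsal saline libraries. Endothelium markers had 3 of 5 called higher in each treatment, and 1 of 5 lower in oxycodone libraries. General striatal neuron markers had 2 and 3 of 5 called higher, and blood markers 2 and 1 of 5. D2 neuron and astrocyte markers had 2 of 5 higher in each treatment. D1 neuron markers had 1 higher and 1 lower in each. Other lists went the other way. Glutamatergic neuron markers had 3 of 5 called lower in dorsal oxycodone and 2 of 5 in dorsal saline libraries. Oligodendrocyte precursor markers had 1 of 3 and 2 of 3 called lower. The part of these cells in the regional differences was not tested.

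Many of these genes have near-identical copies, which matters for how reads are shared out. The annotation (GENCODE M21, GRCm38) names 291 pseudogene loci for the 76 genes, at least 1 for 59 of them, with most for Rpl31 (24) and Rps12 (23). Windows of 50 bases along each message were looked up, on the transcribed strand, in all other annotated genes, and the median gene shared 56.5% of them, with 3.0% for Rps3 and 98.6% for Rps27. The first 60 coding bases illustrate this for genes with a copy of their own in the table, each set beside the closest stretch of the copy, with capitals where the pair differs.
Rps10 (chr17:27630418-27636669, minus strand): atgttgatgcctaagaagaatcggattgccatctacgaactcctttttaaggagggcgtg
Rps10-ps1 (chr3:95622278-95622772, plus strand): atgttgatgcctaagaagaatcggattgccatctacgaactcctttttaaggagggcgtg
Rpl10 (chrX:74270812-74273135, plus strand): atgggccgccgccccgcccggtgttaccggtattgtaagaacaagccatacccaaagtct
Rpl10-ps3 (chr9:50344201-50344968, minus strand): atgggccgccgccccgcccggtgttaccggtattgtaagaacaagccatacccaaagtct
Rpsa (chr9:120127689-120132369, plus strand): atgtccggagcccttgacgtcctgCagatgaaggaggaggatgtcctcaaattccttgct
Rpsa-ps10 (chr3:150072658-150073542, minus strand): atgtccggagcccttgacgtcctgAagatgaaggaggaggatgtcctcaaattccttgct
The coordinates span each gene. Rps10 and Rpl10 were identical to their copies over these 60 bases, and Rpsa differed from its copy at 1. How reads that match several places were counted is not given in the sources used here, so the level of a gene with close copies is uncertain.

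**Figure D5:**
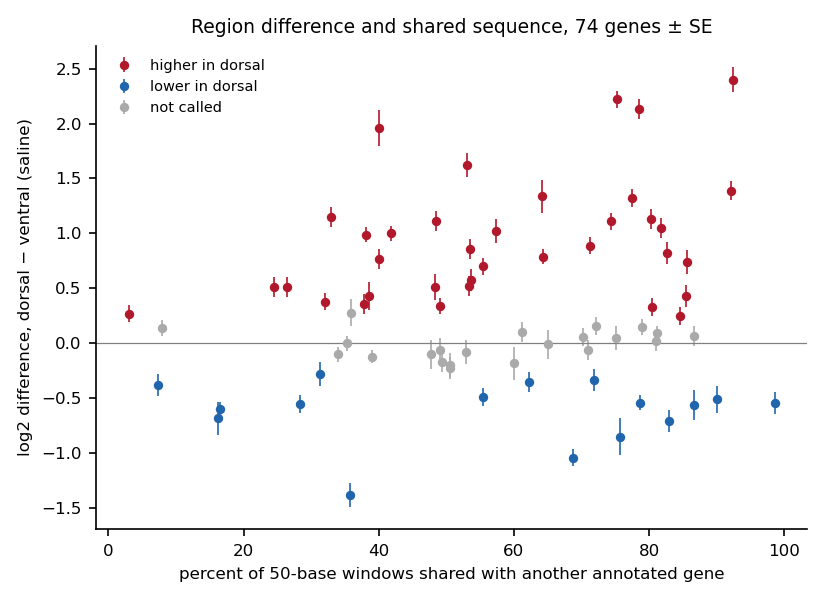
Log2 difference, dorsal minus ventral, in saline libraries with SE, against the percent of 50-base windows of a message that occur in another annotated gene, for 74 of the 76 genes. Genes called higher and lower are found along the whole axis, from Rps3 at 3.0% to Rps27 at 98.6%.

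Shared sequence and regional difference were set side by side, and the part of one in the other was not tested. Spearman's rho between a gene's difference in saline libraries and its share of 50-base windows was 0.08 over the 76 genes, and with the number of pseudogene loci it was 0.03, as descriptions. Among the genes with the largest differences, Rps10 shared 92.4% of windows, Rpl10 92.1%, Rpl29 78.5% and Rpl15 75.2%. Rpl41 shared 53.1% and Rps16 40.1%, and Rps29, with the lowest difference, 35.8%. Among genes that shared few, Rps3, at 3.0%, differed by 0.25 (SE 0.08) in oxycodone and 0.27 (SE 0.08) in saline libraries. Rpl4, at 16.5%, differed by -0.59 (SE 0.07) and -0.60 (SE 0.07), and both genes were called in both treatments. Rpl8, at 7.9%, differed by 0.16 (SE 0.07) and 0.14 (SE 0.07) and was called in neither by edgeR, while DESeq2 called Rpl8 in oxycodone libraries (adjusted p = 0.0413). The table has 24 rows with symbols of the copies, which together came to 0.0645% to 0.12% of the counts of the 76 genes in dorsal and 0.0792% to 0.165% in ventral libraries. Their non-zero counts were even in 84.0% of cases in dorsal and 44.9% in ventral libraries, while those of the 76 genes were even in 50.7% and 52.0%. Over all rows, non-zero counts were even in 56.0% of cases in dorsal and 48.3% in ventral libraries. The parity of the counts differed more between regions in the copies than in the genes. Counts of the copies were mostly far below those of the genes, so this contrast cannot separate size of count from kind of row.

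Other parts of the translation machinery were set beside the 76 genes, and none of their genes was called for oxycodone in either region or for the difference of regions. Ribosomal proteins outside the symbol rule, 8 of which were tested, had 7 higher in dorsal oxycodone and 6 in dorsal saline libraries, and none lower, where 23.5% and 23.6% of all genes were called higher. Fau, which encodes the small subunit protein eS30 as a ubiquitin-like fusion, differed by 1.5 (SE 0.08) and 1.59 (SE 0.08). Rps3a1 differed by 0.99 (SE 0.08) and 0.93 (SE 0.08), and the scaffold Rack1 by 0.49 (SE 0.07) and 0.47 (SE 0.07). Mitochondrial ribosomal protein genes were higher in 23 and lower in 17 of 77 cases in oxycodone libraries, and in 24 and 17 in saline libraries. Of 53 initiation factors 16 were higher and 18 lower in each treatment.

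Elongation and release factors were higher for 5 and lower for 3 of 10 genes in each treatment. Eef2, which moves the ribosome along, differed by 0.48 (SE 0.07) in oxycodone and 0.51 (SE 0.06) in saline libraries, and Gspt2, a release factor, by -1.29 (SE 0.12) and -1.08 (SE 0.19). Ribosome biogenesis genes split into 13 higher and 11 lower of 42 in oxycodone and 14 and 10 in saline libraries; nucleolin (Ncl) differed by -0.87 (SE 0.09) and -0.71 (SE 0.10). Of 19 regulators of these messages, none was called higher and 7 lower in oxycodone libraries, and 1 higher and 8 lower in saline libraries, where 23.7% and 22.3% of all genes were called lower. No list was tested as a whole. Larp1, which binds the start-site sequence of ribosomal protein messages, differed by -1.13 (SE 0.10) and -1.26 (SE 0.10). The single snoRNA host gene tested was not called.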

How the data were processed

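Raw counts per Ensembl gene in 22 libraries were used as deposited. The authors made these counts with CASAVA 1.8.2, STAR 2.3 and featureCounts and named the builds mm10, GRCm38 and mm9, per the submitters' processing notes; strand setting, multi-mapping reads and counting of mates are not given in the sources used here. Symbols came from GENCODE M21 for 22282 of 23119 rows. Libraries were grouped by their labels into 4 groups of region and treatment. All genes kept by filterByExpr were fitted with edgeR 4.0.16 (robust quasi-likelihood test, TMM factors; R 4.3.3), two-sided, with Benjamini-Hochberg adjustment over all genes tested and a threshold of 0.05. The comparisons were oxycodone with saline in dorsal and in ventral striatum, dorsal with ventral in each treatment, and the 2 oxycodone changes with each other over all libraries. Levels are TMM-scaled CPM; log2 CPM used a prior count of 2. Alternatives were DESeq2 1.42.0, limma-voom 3.58.1 with quality weights, other scaling factors, no filter, libraries left out, lane, title suffix, summed pairs, halved dorsal counts, a fold of at least 2 and title number as a block. The fits were tested on simulated data.

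The members and gene lists were chosen with earlier results of these data known. Named are always 12 of the genes (the stalk genes, Rpsa and others of known role), those with the lowest p in each comparison and direction, and those at the ends of level and spread; the genes printed are a subset. Rps3, Rpl4 and Rpl8 were named after their values were seen, for their shared sequence. The lowest count of a member was 99; for genes at such counts counting error can be as large as the spread between libraries. Values of 2 of the genes are counted in the totals and not reported singly here.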

Additional observations from a re-analysis of the deposited data

Results flagged for a closer look

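In groups of 5 or 6 libraries, 14 of 180 sets of values (7.78%) had 1 library far from the rest by Dixon's criterion, where chance gives about 1 in 20. Over all 76 genes and 4 groups, 26 of 304 sets (8.55%) did, 9 of them in ventral saline library 6, which also stood apart by its marker genes. In that library Rpsa was low at 317.3 CPM, Rps29 at 133.1 CPM, Rps27a at 74.6 CPM and Rpl36a at 47.1 CPM. In ventral saline library 3, Rps28 was high at 89.5 CPM. In dorsal oxycodone library 2, Rps24 was low at 175.2 CPM and Rpl17 at 226.3 CPM, while Rps28 was high at 49.1 CPM. In dorsal saline libraries, Rpl15 was low in library 5 at 115.8 CPM and Rps4x in library 3 at 195.6 CPM. In ventral oxycodone libraries, Rpl15 was low in library 6 at 20.4 CPM and Rpl10a in library 5 at 40.8 CPM, while Rps27a was high in library 1 at 115.5 CPM and Rplp2 in library 4 at 81.5 CPM. The cause was not tested for any of these.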

How the results depend on the processing

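Calls for region changed little: leaving out 1 library gave 53 to 58 genes in oxycodone and 52 to 56 in saline libraries, and the other scalings, filters and tools gave 56 to 60 and 52 to 57, except that asking for a fold of at least 2 left 11 and 8 genes, by that test's own construction. For oxycodone, DESeq2 called 1 gene in dorsal striatum (Rps14), where the other settings called none in either region. The median of the difference of the oxycodone changes ran from -0.019 to 0.051 when 1 library was left out. Without mitochondrial counts the mean share was 1.56% in dorsal oxycodone and 1.32% in ventral oxycodone libraries. The difference of Rplp2 in saline libraries was 0.00 by limma-voom and ran from -0.10 to 0.11 with 1 library left out (0.11 without dorsal saline library 3). That of Rplp1 in oxycodone libraries lost its call with library totals as scaling (-0.20, edgeR adjusted p = 0.0618), without both libraries numbered 6 (-0.20, edgeR adjusted p = 0.0663) and in 7 of 11 fits that left out 1 library; the cause was not tested. Whether title numbers pair libraries was not settled: same-numbered libraries correlated from -0.016 to 0.335 in oxycodone and from -0.058 to 0.016 in saline libraries. In oxycodone libraries, number 7 correlated at 0.335 with its own number and at most at -0.003 with another. Number 1 gave 0.142 against 0.018. For every other number, in both treatments, another number correlated higher. With title number as a replicate block the calls were 56 in oxycodone and 53 in saline libraries, against 56 and 55 in the same libraries with no block, a fit chosen after seeing the data. Depth limits the precision for the lowest genes, such as Rpl39 with counts from 99.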
